A study of Mus musculus with 4 samples.

Results

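The Ms4a genes form a family of membrane proteins that lie side by side on mouse chromosome 19. The members described here, in the immune cells of the uninjured and injured spinal cord, are Ms4a1, Ms4a3, Ms4a4a, Ms4a4b, Ms4a4c, Ms4a6b, Ms4a6c, Ms4a6d and Ms4a7. They were taken by symbol, as 9 of the 31053 genes measured and 9 of the 19 whose symbol starts with Ms4a. All 9 were found once in each library. Each gene is a member in every cell class, so that the question is how the members divide between B cells, T and NK cells, monocytes, progenitors, macrophages and microglia, and how their levels differ after injury.

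CD45+ cells of the spinal cord of 3-month-old C57BL/6 mice were sequenced in 4 libraries with the 10x Chromium method. The sham mice had a laminectomy at thoracic segment T10 without contusion, and their cells gave 1 library made with the standard dissociation and 1 made with actinomycin D (ActD), a transcription inhibitor kept in the buffers from digestion to sorting. The injured mice had a moderate contusion at the same segment, and their cells were taken at 3 days post-injury (dpi) and 14 dpi, with ActD in both. The mice were of both sexes and were perfused before the cord was taken, and the methods do not say how many mice went into each library. With 1 library per condition there was no spread between replicates and no test. A ratio between libraries therefore compares those libraries. The files of the sham standard and 3 dpi libraries also carry another software version than those of the sham ActD and 14 dpi libraries. The 95% intervals below cover counting error only.

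MS4A proteins cross the membrane several times and sit beside other receptors, whose signals or trafficking some of them are known to alter. Ms4a1 is the B cell antigen CD20, Ms4a3 is known from dividing progenitors of granulocytes and monocytes, and Ms4a4b is known from T and NK cells. The remaining members studied here are known mainly from monocytes and macrophages. Ms4a7 is widely used to tell the macrophages at the borders of the nervous system from microglia, and human MS4A4A and MS4A6A are known for their link to soluble TREM2 and to Alzheimer's disease.

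After filters, 5035 cells of the sham standard library, 2135 of the sham ActD library, 8214 of the 3 dpi library and 9078 of the 14 dpi library remained, with median depths between 7435 and 9663 unique molecular identifiers (UMIs), each of which marks 1 captured RNA molecule. Cells were grouped into clusters without any Ms4a gene, and clusters were named B cell-like, T cell-like, NK cell-like, monocyte-like, myeloid progenitor-like, neutrophil-like, dendritic cell (DC)-like, macrophage-like and microglia-like from marker lists. The suffix is left out from here on. Every marker on the list of a class had UMIs in that class, with these exceptions. Arg1 and Gpnmb of the injury macrophage list were at 0 in the macrophages of the sham ActD library. The DC markers Itgae and Ccl17 were at 0 in the conventional DCs of the sham standard library. This takes a class as a whole and does not ask in how many cells a marker was found. In some classes fewer markers reached the share of cells used for naming. In progenitor cluster 14, 5 did at 3 dpi and 10 in the sham standard library. In neutrophil cluster 3 it was 8 and 11. In microglial cluster 0, 11 did in each library, and in microglial cluster 1, 10 did at 3 dpi. In pro-B or pre-B cluster 10 only 4 did in the sham standard and 14 dpi libraries. A class was measured in a library only if it held at least 20 cells there. The sham ActD library had no T cell, NK cell, progenitor or conventional DC class by this rule, and its monocyte class held 28 cells and its B cell class 64. Between 2 and 24 cell barcodes were shared by a pair of libraries. The levels below are the UMIs of a gene scaled to the total of the class (CPM). They are compared between classes and libraries for 1 gene at a time, never between genes.

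The members differed in the class where they were highest. Over the libraries that held each class, the median level was highest in B cells for Ms4a1, in myeloid progenitors for Ms4a3, in NK cells for Ms4a4b, with T cells next, and in macrophages for Ms4a7. For Ms4a4b this median covers 2 libraries for NK cells and 3 for T cells. In each library with both classes T cells were the higher, though not beyond counting error. The NK class depends on the filter that left out cells with Itgam and a lymphoid marker. With those cells kept, NK cells numbered 335 in place of 214 at 14 dpi. The sham standard library then also held an NK class, of 50 cells, which was its highest class for Ms4a4b. For the other 5 members, Ms4a4a, Ms4a4c, Ms4a6b, Ms4a6c and Ms4a6d, the median level was highest in monocytes. The 3 Ms4a6 genes were found at some level in most myeloid classes.

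**Figure D1:**
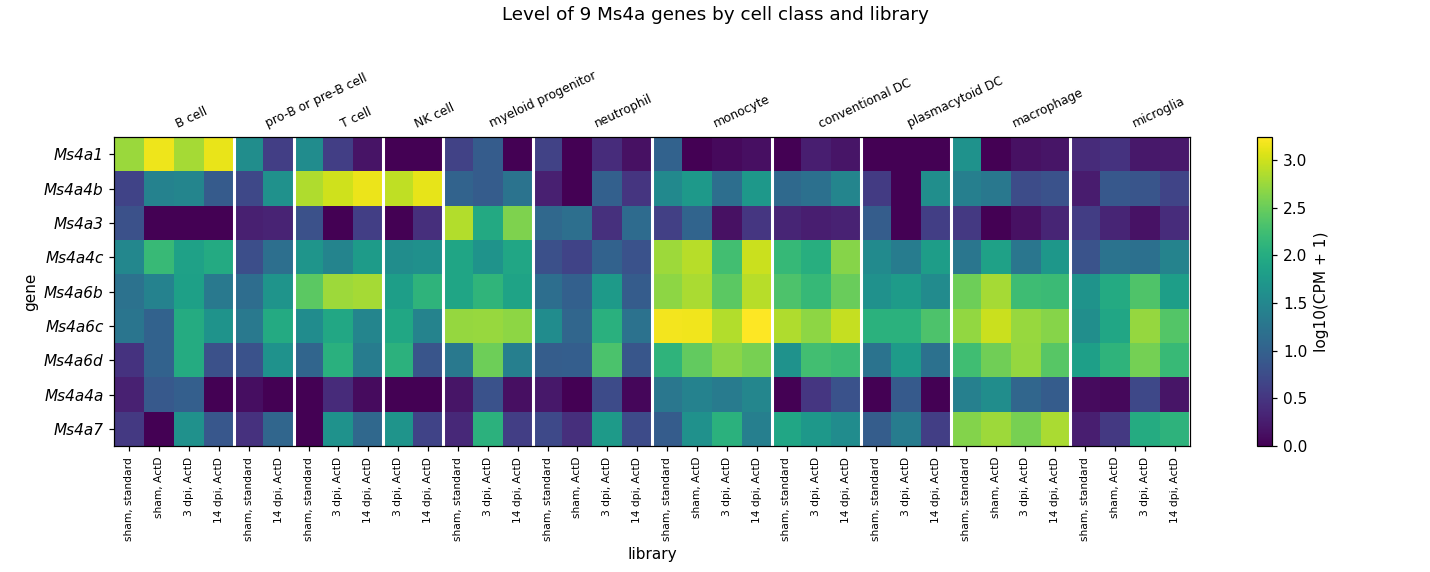
Level of the 9 members (rows) in 11 cell classes and up to 4 libraries (columns), as log10(CPM + 1) on the colour scale. Ms4a1, Ms4a4b, Ms4a3 and Ms4a7 each have a bright block in B cells, T and NK cells, progenitors and macrophages, while the Ms4a6 genes are bright across the myeloid classes, and the microglia columns of Ms4a7 are dark in both sham libraries and bright at 3 and 14 dpi.

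The order on the chromosome followed these patterns in part. On GRCm38 the 9 members span 391.177 kb of chromosome 19, from 11249675 to 11640851, with only 1 protein-coding gene outside the family, Gm8369, among the 14 in the span. Ms4a1 (11249675 to 11266241, minus strand) stands at one end, next to Ms4a7 (11321039 to 11336146, minus). Ms4a4a (11375523 to 11392790), Ms4a4c (11404770 to 11427246), Ms4a4b (11443553 to 11467055), Ms4a6c (11469366 to 11482192) and Ms4a6b (11516512 to 11531256) follow on the plus strand. Ms4a6d (11586604 to 11604849, minus) and Ms4a3 (11629496 to 11640851, minus) stand at the other end. The 5 members with the highest median level in monocytes thus follow one another. Ms4a4b, highest in NK and T cells, is the only other member among them, between Ms4a4c and Ms4a6c. In single libraries these 5 were not always highest in monocytes. Ms4a6d was highest in macrophages in the sham standard, sham ActD and 3 dpi libraries. Ms4a4a was highest in macrophages in both sham libraries, and Ms4a6b in T cells at 3 dpi. Ms4a1, Ms4a4c, Ms4a6c and Ms4a6b overlap the genes 4930526L06Rik, Gm5692, BE692007 and Gm19261 on the opposite strand.

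**Figure D2:**
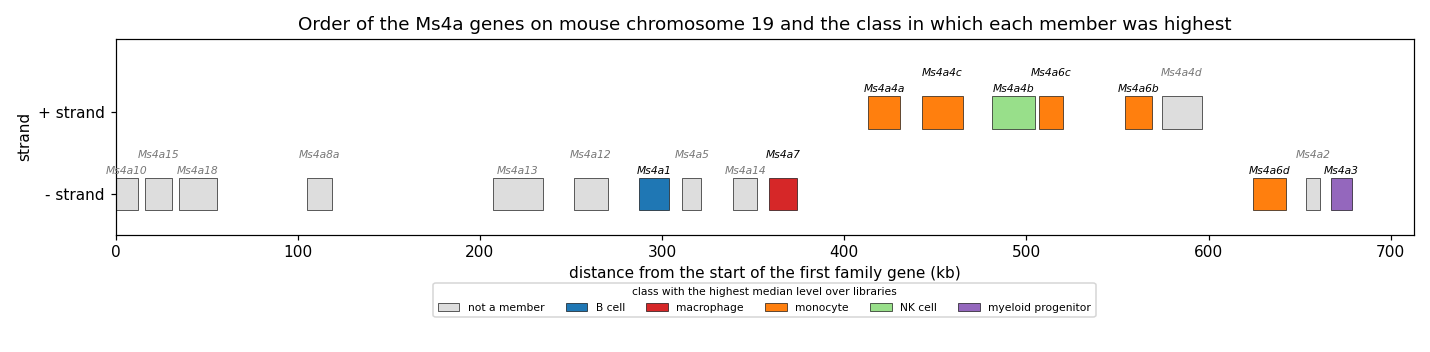
Map of the Ms4a genes of the features table along mouse chromosome 19, in kb from the start of the first gene of the family, with the plus strand above and the minus strand below. Bars are genes drawn to scale, coloured by the class with the highest median level over the libraries, and grey for genes of the family that are not described as members. Along the 391.177 kb, by this median, the members highest in B cells and macrophages stand at one end and that highest in progenitors at the other. The 5 highest in monocytes by this median lie between them with Ms4a4b among them. By this median Ms4a4b is highest in NK cells, but T cells are the higher in each library with both classes.

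Ms4a1, which encodes CD20, was held mostly by B cells. In B cells its level was 565 CPM (1149 UMIs) in the sham standard library, 1423 CPM (601 UMIs) in the sham ActD library, 629 CPM (221 UMIs) at 3 dpi and 1349 CPM (1239 UMIs) at 14 dpi. The sham ActD and 14 dpi libraries were thus high and the sham standard and 3 dpi libraries low. The software versions of the files divide the libraries in the same way, and their part was not tested. B cells held 72.4%, 93.6%, 78.4% and 95.6% of all Ms4a1 UMIs in these libraries, with 10.4%, 3.00%, 1.59% and 3.13% of the cells. In cells named pro-B or pre-B, present in 2 libraries, Ms4a1 stood at 37.2 CPM in the sham standard library and 3.01 CPM at 14 dpi. They too express Cd79a, a part of the B cell receptor. Most of them, 200 of 240 and 235 of 283, were of cluster 10, with Top2a and Mki67 among its leading genes. That cluster was named microglia in the sham ActD and 3 dpi libraries. Cluster 24, led by Vpreb1, held 40 and 48 cells. At 14 dpi the class also held 92 UMIs of Trbc2, a T cell marker, and its make-up was not tested. Microglia ranged from 0.630 to 2.02 CPM. Macrophages of the sham standard library showed 43.7 CPM, or 20.1 UMIs of Ms4a1 per 100 of Cd79a, where B cells of that library showed 17.5.

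The cells counted as B cells were not uniform. A finer clustering split them into cluster 17, with much H2-Ab1, an MHC class II gene of mature B cells, and cluster 16, with little in 3 of the libraries. At this resolution cluster 16 was given no name in any library, since genes of another class led it. Vpreb3, Rag1 and Ebf1, known from precursors of B cells, were among its leading genes, and its cells count as B cells in the coarser clustering only. In cluster 17 Ms4a1 was at 1264, 2165, 581 and 2024 CPM in the sham standard, sham ActD, 3 dpi and 14 dpi libraries, and in cluster 16 at 72.1, 272, 793 and 446 CPM. H2-Ab1 was at 2931, 2469, 1855 and 2159 CPM in cluster 17 and at 67.1, 60.4, 931 and 138 CPM in cluster 16, so that the 27 cells of cluster 16 at 3 dpi did not lack it. Cluster 16 held 317 of the 524 B cells of the sham standard library, but 30 of 64 in the sham ActD library. Within cluster 17 the 3 dpi library was the lowest by far for Ms4a1, while Cd79a was at 2502 CPM there and at 3851 to 3908 CPM in the other libraries.

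Read as shares of cells, 26.1% (22.4 to 30.1%), 51.6% (38.7 to 64.2%), 41.98% (33.4 to 50.9%) and 53.0% (47.0 to 58.9%) of B cells had a UMI of Ms4a1 after each cell was thinned to 1000 UMIs. In microglia of the same libraries, which should lack it, the shares were at most 0.157%. The median depth was between 2504 and 5810.5 UMIs in B cells and between 7735 and 16422.5 in microglia before thinning.

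Ms4a4b, known from T and NK cells, was far higher in them than in other classes, in the libraries that held them. It was not absent elsewhere. Monocytes had 64, 70 and 297 UMIs of it in the sham standard, 3 dpi and 14 dpi libraries, beside 1, 20 and 5 of Trbc2, a T cell marker. T cells there gave 46.9, 89.8 and 108 UMIs of Ms4a4b per 100 of Trbc2. The source of the monocyte level was not tested. In T cells it was at 712 CPM (135 UMIs) in the sham standard library, where the class held 28 cells, at 1025 CPM (2034 UMIs) at 3 dpi and at 1380 CPM (5482 UMIs) at 14 dpi. NK cells, present in 2 libraries after the filters, were at 837 CPM (90 UMIs) at 3 dpi and 1312 CPM (1508 UMIs) at 14 dpi. As whole classes, T cells and NK cells did not differ beyond counting error. T cells were 1.22-fold (0.991 to 1.53) above NK cells at 3 dpi and 1.05-fold (0.993 to 1.11) at 14 dpi. The next class stood far below, namely B cells at 28.5 CPM at 3 dpi and monocytes at 52.4 CPM at 14 dpi. In the sham ActD library, which had no T or NK class, 59.0% of the Ms4a4b UMIs lay in cells without a name, and the highest of the named classes was monocytes, with 54.6 CPM (27 UMIs).

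Not all T cells were alike in Ms4a4b. The finer clusters were 13, rich in Cd4, 19, rich in Cd8a, and 27, rich in Trdc, the constant gene of the delta chain of the gamma-delta T cell receptor. Ms4a4b was at 1026 and 1491 CPM in cluster 13 at 3 and 14 dpi, at 1184 and 1745 CPM in cluster 19, and at 54.3 and 128 CPM in cluster 27. The Trdc-rich cells thus had the lowest level of the 3 clusters at both times. Clusters 13 and 19 were above the NK cells of the same library at both times and cluster 27 was below them. The T cell class as a whole mixes these levels. Of T cells thinned to 1000 UMIs, 42.9% (24.5 to 62.8%) had a UMI of Ms4a4b in the sham standard library, 58.7% (54.3 to 63.1%) at 3 dpi and 62.1% (58.5 to 65.6%) at 14 dpi, and of NK cells 54.5% (36.4 to 71.9%) and 69.6% (63.0 to 75.7%). The share in microglia was at most 1.21%.

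Ms4a3, of granulocyte and monocyte progenitors, was highest there in the 3 libraries that held the class. Progenitors stood at 732 CPM (7072 UMIs) in the sham standard library, 93.1 CPM (83 UMIs) at 3 dpi and 407 CPM (4688 UMIs) at 14 dpi. This class held 96.0% and 93.6% of all Ms4a3 UMIs in the sham standard and 14 dpi libraries, with 5.58% and 5.01% of the cells. At 3 dpi it held 34.4% of them, with 0.475% of the cells, and 46.9% lay in cells without a name. Erythroid cells, a class of 14 dpi only, were at 62.6 CPM. Neutrophils, which descend from such progenitors, were at 11.6, 14.2, 1.78 and 12.6 CPM in the sham standard, sham ActD, 3 dpi and 14 dpi libraries. In the sham ActD library 94.7% of the Ms4a3 UMIs lay in cells without a name. After thinning, 31.4% (26.0 to 37.2%), 5.13% (0.627 to 17.3%) and 17.4% (14.0 to 21.2%) of progenitors had a UMI of Ms4a3, against at most 0.313% of microglia.

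The progenitors of 3 dpi numbered 39 cells and were low in the markers of the class too. Elane, a protease of early granulocytes, was at 6619, 555 and 2994 CPM in the progenitors of the sham standard, 3 dpi and 14 dpi libraries, and Mpo at 3562, 719 and 1413 CPM. Ms4a3 gave 20.6, 12.9 and 28.8 UMIs per 100 of Mpo in the same libraries, so that Ms4a3 was lower relative to Mpo at 3 dpi than in the other libraries. Arg1, a gene of injury macrophages, stood at 2460 CPM in these progenitors at 3 dpi and at no more than 0.0869 CPM in those of the other libraries, and its part in the result was not tested.

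**Figure D3:**
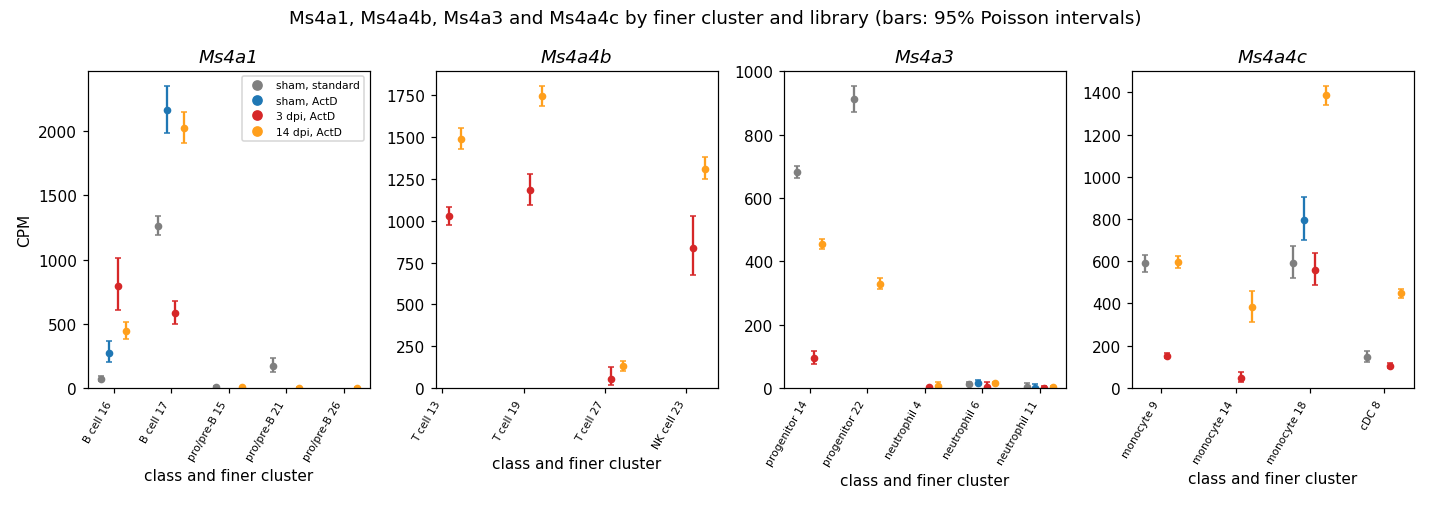
Levels in CPM of Ms4a1, Ms4a4b, Ms4a3 and Ms4a4c in the finer clusters of the classes where each was high, with 1 point per library (grey, sham standard; blue, sham ActD; red, 3 dpi; orange, 14 dpi) and 95% Poisson intervals as bars. Ms4a1 is far higher in cluster 17 than in cluster 16, which was given no name at this resolution, except at 3 dpi, T cell cluster 27 is at 54.3 and 128 CPM of Ms4a4b, and the monocyte cluster 18 at 14 dpi has the highest level of Ms4a4c, 1386 CPM.

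Ms4a4c was far higher in monocytes than in macrophages. Monocytes were at 575 CPM (1107 UMIs), 775 CPM (383 UMIs), 179 CPM (901 UMIs) and 945 CPM (5358 UMIs) in the sham standard, sham ActD, 3 dpi and 14 dpi libraries, and macrophages at 17.5, 70.1, 17.6 and 51.1 CPM. Monocytes were the highest class in all 4 libraries, and the 3 dpi library was the lowest for them. Conventional DCs came next where they were present, at 148, 106 and 448 CPM in the sham standard, 3 dpi and 14 dpi libraries. B cells had 30.5, 149, 71.2 and 94.7 CPM in the 4 libraries, and microglia 5.76, 16.0, 14.7 and 27.3 CPM.

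Within monocytes the finer clusters differed in Ms4a4c. Cluster 9, with Ace at 4.87 to 23.8 CPM, was at 590, 151 and 594 CPM in the sham standard, 3 dpi and 14 dpi libraries. Cluster 18, with Ace, a gene of non-classical monocytes, at 152 to 501 CPM, was at 594, 798, 560 and 1386 CPM in the 4 libraries. At 3 dpi cluster 18 held 63 of the 574 monocytes, and at 14 dpi 331 of 678, so that the class mixes them in different shares. At 14 dpi cluster 18 also had more Ly6c2, a gene of classical monocytes, than cluster 9 (5140 against 1973 CPM), and it is therefore called by its number. The 3 dpi library was the lowest in both clusters. In cluster 9, which held 488 of the 574 monocytes of that library, it was far below the others, and in cluster 18 it was close to the sham standard library.

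Ms4a4b and Ms4a4c, neighbours on the chromosome that divided between T and NK cells and monocytes, have alike sequences upstream. Windows of 250 bases before the RefSeq start were available for 7 of the 9 members (RefSeq on GRCm38.p6). There is none here for Ms4a1 and Ms4a6d. Of 232 aligned bases of the windows of Ms4a4b and Ms4a4c, 183 were identical (78.9%). Windows of Ms4a6b and Ms4a6c gave 149 of 175 (85.1%). For these 4, 200 bases of the window are shown, because the 2 pairs are the only ones with a shared run of over 12 bases, and capitals mark the longest run that is identical in both genes of a pair, 20 bases for Ms4a4b and Ms4a4c and 48 bases for Ms4a6b and Ms4a6c. All 4 are on the plus strand.
Ms4a4b, chr19:11443358-11443557: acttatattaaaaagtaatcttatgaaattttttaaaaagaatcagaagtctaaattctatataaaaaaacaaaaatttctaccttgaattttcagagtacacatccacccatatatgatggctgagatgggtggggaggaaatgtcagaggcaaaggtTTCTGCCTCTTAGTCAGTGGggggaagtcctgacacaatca
Ms4a4c, chr19:11407461-11407660: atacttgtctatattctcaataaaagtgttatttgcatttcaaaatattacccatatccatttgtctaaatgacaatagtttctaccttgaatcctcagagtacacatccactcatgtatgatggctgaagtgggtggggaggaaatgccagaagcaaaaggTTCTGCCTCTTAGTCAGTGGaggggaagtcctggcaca
Ms4a6b, chr19:11518359-11518558: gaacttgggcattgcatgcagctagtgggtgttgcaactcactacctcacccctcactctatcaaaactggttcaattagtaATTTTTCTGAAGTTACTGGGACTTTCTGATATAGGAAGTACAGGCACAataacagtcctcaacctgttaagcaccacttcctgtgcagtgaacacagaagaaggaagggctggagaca
Ms4a6c, chr19:11469168-11469367: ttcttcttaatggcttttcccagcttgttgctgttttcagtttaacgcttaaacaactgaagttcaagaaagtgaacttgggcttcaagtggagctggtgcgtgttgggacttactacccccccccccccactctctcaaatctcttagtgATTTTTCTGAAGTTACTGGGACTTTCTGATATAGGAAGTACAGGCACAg

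A set of 3 short motifs was searched on both strands of the 250 bases before the start, and was chosen after the sequences had been read. GGAAGT, the core bound by ETS factors, was found in 6 of the 7 windows (all but that of Ms4a4a), against 19.7% of the 32851 promoters of the table. GAGGAA, a purine-rich core that PU.1 can bind, was found in Ms4a4b and Ms4a4c, against 23.3% of promoters, and TATAAA in Ms4a4b alone, against 12.4%. The first 2 motifs can overlap, since both contain GGAA, but did not in these windows. The windows of Ms4a4b and Ms4a4c are alike, as are those of Ms4a6b and Ms4a6c, so their matches are not independent. In Ms4a6b and Ms4a6c a GGAAGT lies within their longest shared run. A match describes the letters alone, and the counts cannot show an excess over other promoters. The RefSeq starts of Ms4a4c and Ms4a6b lie 2891 and 2047 bases from the gene starts given above.

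Similarity also reaches the transcripts, whose last bases the 3' libraries read. Of the words of 50 bases in the last 500 bases of its transcripts, Ms4a4c shared 11.1% with Ms4a4b or Ms4a4d, Ms4a6c 6.10% with Ms4a6b, Ms4a6b 3.95% with Ms4a6c or Ms4a6d, and Ms4a4b 3.53% with Ms4a4c. The other 5 members shared none. Reads from those words cannot be assigned to 1 gene, so the values of these 4 members are less certain. T cells, with Ms4a4b at 1380 CPM at 14 dpi, had 58.4 CPM of Ms4a4c, and monocytes, with 945 CPM of Ms4a4c, had 52.4 CPM of Ms4a4b.

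Among the Ms4a6 genes, which are known mainly from myeloid cells, Ms4a6b was the one shared with T cells. Monocytes were at 483, 676, 265 and 768 CPM in the sham standard, sham ActD, 3 dpi and 14 dpi libraries. T cells were at 264, 577 and 626 CPM in the sham standard, 3 dpi and 14 dpi libraries, and at 3 dpi they stood 2.18-fold (2.01 to 2.36) above monocytes. Neither NK cells, at 65.1 and 127 CPM, nor the Trdc-rich T cell cluster 27, at 120 and 170 CPM, reached the level of the other T cells. Macrophages were at 330, 627, 172 and 162 CPM in the 4 libraries, and in the sham ActD library their level and that of monocytes did not differ beyond counting error (1.08-fold, 0.944 to 1.23). B cells were at 15.7, 26.0, 68.3 and 19.6 CPM.

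Ms4a6c had its highest level in monocytes in all 4 libraries, at 1500 CPM (2886 UMIs), 1485 CPM (734 UMIs), 734 CPM (3695 UMIs) and 1734 CPM (9832 UMIs). Conventional DCs were at 703, 486 and 891 CPM in the sham standard, 3 dpi and 14 dpi libraries, myeloid progenitors at 532, 544 and 483 CPM, and macrophages at 524, 962, 542 and 449 CPM in the 4 libraries. Ms4a6c was thus present in progenitors and macrophages too. So was Ms4a4c, at 44.9 to 81.3 CPM and 17.5 to 70.1 CPM, but further below its own level in monocytes. In T cells Ms4a6c was at 36.9, 85.7 and 28.4 CPM in the sham standard, 3 dpi and 14 dpi libraries, so that it was not shared with them.

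For Ms4a6d, macrophages and monocytes traded the first place. Macrophages were at 176, 343, 533 and 246 CPM and monocytes at 127, 287, 480 and 375 CPM in the sham standard, sham ActD, 3 dpi and 14 dpi libraries. Both were highest at 3 dpi. Monocytes were above macrophages at 14 dpi only, 1.52-fold (1.42 to 1.63), and in the sham ActD library the 2 classes did not differ beyond counting error (macrophages 1.19-fold higher, 0.982 to 1.45). Microglia held 63.3%, 69.8% and 60.9% of the Ms4a6d UMIs in the sham standard, sham ActD and 14 dpi libraries, at 67.0, 128 and 153 CPM. They were 50.7%, 75.0% and 45.9% of the cells there. Macrophages held 68.7% at 3 dpi, where they were 38.9% of the cells.

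Ms4a4a, read at few UMIs, was found in macrophages and monocytes. Macrophages were at 24.97, 38.1, 10.7 and 7.83 CPM (20, 44, 580 and 46 UMIs) and monocytes at 18.2, 26.3, 21.1 and 30.0 CPM (35, 13, 106 and 170 UMIs) in the 4 libraries. The 2 classes did not differ beyond counting error in either sham library. Monocytes were higher 1.96-fold (1.58 to 2.42) at 3 dpi and 3.83-fold (2.75 to 5.42) at 14 dpi.

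Ms4a7 marked macrophages in every library. They were at 438 CPM (351 UMIs), 587 CPM (679 UMIs), 379 CPM (20459 UMIs) and 679 CPM (3990 UMIs) in the sham standard, sham ActD, 3 dpi and 14 dpi libraries. In the sham libraries microglia were at 0.887 CPM (18 UMIs) and 2.41 CPM (43 UMIs), and macrophages held 68.7% and 80.5% of all Ms4a7 UMIs with 2.34% and 5.01% of the cells. The gene thus told the 2 classes apart in the uninjured cord. At 14 dpi microglia held 57.3% of the Ms4a7 UMIs and macrophages 38.3%, with 45.9% and 4.87% of the cells. Monocytes were at 7.80, 42.5, 116 and 24.2 CPM.

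**Figure D4:**
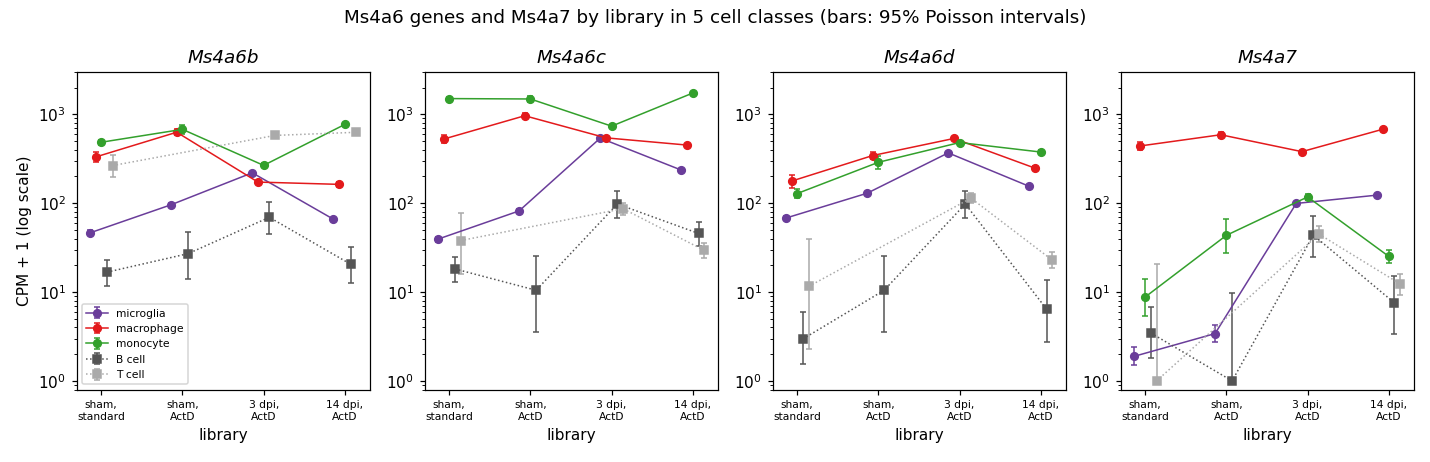
Levels of Ms4a6b, Ms4a6c, Ms4a6d and Ms4a7 as CPM + 1 on a log axis, by library, in microglia, macrophages and monocytes (circles, solid lines) and in B and T cells (squares, dotted lines), with 95% Poisson intervals as bars. Microglial Ms4a7 is at 0.887 and 2.41 CPM in sham and at 98.3 and 122 CPM after injury, and B and T cells at 3 dpi are at 42.7 and 43.8 CPM of Ms4a7.

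Before the libraries are compared, the level of macrophage genes in lymphocytes at 3 dpi has to be given. Spp1 is a secreted protein on the list of injury macrophages. At 3 dpi it was at 4946 CPM in B cells, 4308 CPM in T cells and 4723 CPM in NK cells. Macrophages of that library had 32604 CPM, and the B and T cells of the sham libraries at most 2.46 CPM. Spp1 was not confined to macrophages, since microglia of 3 dpi held 514966 of its UMIs, beside 1761198 in macrophages. Arg1 was at 578, 459 and 530 CPM in B, T and NK cells at 3 dpi. Of the members, Ms4a6c was at 96.8, 85.7 and 83.7 CPM, Ms4a6d at 96.8, 113 and 121 CPM and Ms4a7 at 42.7, 43.8 and 46.5 CPM in B, T and NK cells of that library. Ms4a7 gave 8.64, 10.2 and 9.84 UMIs per 1000 of Spp1 in these 3 classes and 11.6 in macrophages. Ms4a6c gave 19.6, 19.9 and 17.7 beside 16.6 in macrophages, and Ms4a6d 19.6, 26.2 and 25.6 beside 16.4. Ms4a6b gave 13.8, 134 and 13.8 beside 5.26 in macrophages. In microglia of 3 dpi, Ms4a7, Ms4a6c, Ms4a6d and Ms4a6b gave 4.24, 23.2, 15.8 and 9.44. Ms4a6b was at 68.3 CPM in B cells and 65.1 CPM in NK cells, while T cells had far more. These levels in lymphocytes are set beside the 3 dpi values of other classes, and the part of shared RNA in them was not tested.

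In microglia, 7 of the 9 members were past 2-fold at 3 dpi against the sham ActD library. Ms4a4a, Ms4a6b, Ms4a6c, Ms4a6d and Ms4a7 were higher, where 13.6% of the 12499 genes with at least 20 UMIs were more than 2-fold higher, and Ms4a1 and Ms4a3 lower, where 32.4% were. The median log2 ratio was 1.204 over the members and -0.51 over all genes, and scaling by the trimmed mean of M values (TMM) would add 0.495 to each microglial ratio at 3 dpi and 0.548 at 14 dpi. Ms4a1 and Ms4a3 had log2 ratios of -1.68 and -1.39 from 36 and 21 UMIs in the sham ActD library, and that of Ms4a1 turned positive with looser cell filters and with the finer clustering. The 5 higher members are those highest in monocytes or macrophages, other than Ms4a4c. The microglia compared were not the same clusters. Cluster 0 held 1345 of the 1601 microglia of the sham ActD library and 209 of the 1160 of 3 dpi. Cluster 10, with Top2a and Mki67 among its leading genes, gave 428 microglia at 3 dpi but was named pro-B or pre-B at 14 dpi. The part of this in the ratios was not tested.

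Ms4a7 had the largest ratio of the 9 members in microglia at both times after injury. It was at 0.887 CPM in the sham standard library, 2.41 CPM in the sham ActD library, 98.3 CPM (2184 UMIs) at 3 dpi and 122 CPM (5972 UMIs) at 14 dpi. Both injured libraries were far above both sham libraries. Against the sham ActD library this is 40.8-fold at 3 dpi (log2 5.35, 4.92 to 5.82) and 50.8-fold at 14 dpi (log2 5.67, 5.23 to 6.13). The sham level rests on 43 UMIs, and the size of the ratio depended on which cells were called microglia. Over the alternatives the log2 ratio ran from 2.17 with cells named one by one to 8.71 with the stricter cell filter at 3 dpi, and from 3.33 to 8.13 with the same 2 at 14 dpi. With cells named one by one, Ms4a4a (2.86) and Ms4a6c (2.32) had larger log2 ratios than Ms4a7 at 3 dpi. Microglia were 2.24-fold (1.81 to 2.81) above T cells at 3 dpi and 10.8-fold (8.06 to 14.8) above them at 14 dpi. Arg1 had 17154 UMIs in the microglia of 3 dpi. Per 1000 UMIs of Arg1, Ms4a7 gave 127 in these microglia, 95.5 in T cells and 82.7 in macrophages. Per 1000 of Spp1 it gave 4.24, 10.2 and 11.6, where Spp1 itself had 514966 UMIs in these microglia. The part of shared RNA in the microglial level was not tested. After thinning to 1000 UMIs, 0.187% (0.0387 to 0.547%) of microglia in the sham ActD library, 10.5% (8.81 to 12.4%) at 3 dpi and 8.11% (7.30 to 8.98%) at 14 dpi had a UMI of Ms4a7, beside 6.15% and 0.670% of T cells at 3 and 14 dpi.

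Ms4a6c in microglia stood at 38.3 CPM (778 UMIs) and 80.8 CPM (1442 UMIs) in the sham standard and sham ActD libraries, 539 CPM (11967 UMIs) at 3 dpi and 234 CPM (11437 UMIs) at 14 dpi. This is 6.67-fold (log2 2.74, 2.66 to 2.82) and 2.90-fold (log2 1.54, 1.46 to 1.62) over the sham ActD library. At 3 dpi the level equalled that of macrophages, 542 CPM. Microglia stood 6.29-fold (5.40 to 7.36) above the T cells of the 3 dpi library and 8.23-fold (6.84 to 9.998) above those of the 14 dpi library. The share of microglia with a UMI was 7.31% (6.08 to 8.69%) in the sham ActD library, 36.3% (33.5 to 39.1%) at 3 dpi and 18.4% (17.2 to 19.6%) at 14 dpi.

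Ms4a6b and Ms4a6d were high in microglia at 3 dpi only. Ms4a6b was at 45.3, 94.9, 219 and 64.9 CPM in the sham standard, sham ActD, 3 dpi and 14 dpi libraries, 2.30-fold (log2 1.204, 1.12 to 1.28) above the sham ActD library at 3 dpi and 0.684-fold of it at 14 dpi (log2 -0.55, -0.63 to -0.46). Ms4a6d was at 67.0, 128, 367 and 153 CPM, 2.86-fold (log2 1.52, 1.45 to 1.58) and 1.195-fold (log2 0.26, 0.19 to 0.33) above it. Microglia were 3.25-fold (2.85 to 3.73) above the T cells of 3 dpi for Ms4a6d and 3.2001-fold (2.15 to 4.9996) above the B cells for Ms4a6b. Ms4a4a was at 0.246 and 0.168 CPM (5 and 3 UMIs) in the sham standard and sham ActD libraries, 4.05 CPM (90 UMIs) at 3 dpi and 0.532 CPM (26 UMIs) at 14 dpi. In B cells of 3 dpi Ms4a4a was at 8.54 CPM from 3 UMIs, and microglia stood 0.474-fold (0.157 to 2.34) of them, an interval that holds 1. In T cells of 3 dpi it was at 1.51 CPM, also from 3 UMIs.

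At 14 dpi, 3 members were past 2-fold higher in microglia than in the sham ActD library, Ms4a4a, Ms4a6c and Ms4a7, where 5.24% of all genes were, and 1 was lower, Ms4a1, where 20.6% were. The interval of Ms4a4a held 1 (log2 1.66, -0.04 to 4.03). Ms4a4c stood at 1.71-fold (log2 0.77, 0.59 to 0.96). From 3 to 14 dpi, 4 members were past 2-fold lower, Ms4a4a, Ms4a6b, Ms4a6c and Ms4a6d, against 16.1% of genes, and Ms4a3 higher, against 11.6%. Of the other members highest in macrophages or monocytes, Ms4a7 had a log2 ratio of 0.31 (0.24 to 0.39) and Ms4a4c of 0.89 (0.71 to 1.07) between these times. Over the alternatives these ran from -0.58 to 1.16 and from -0.13 to 1.19, so that neither direction was stable.

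Ms4a7 was not even over the microglia. At 14 dpi cluster 1, led by Lpl, Apoc1 and Cst7 and with Spp1 at 5623 CPM, held 2456 of the 4164 microglia and had 154 CPM of Ms4a7, while cluster 0, led by P2ry12, Gpr34 and Tmem119 and with Spp1 at 181 CPM, held 976 and had 16.8 CPM. Cluster 0 was thus close to the T cells of its library, at 11.3 CPM. Cluster 15, led by interferon response genes such as Ifit2 and Ifit3, had 164 CPM, cluster 13, led by Il1a, had 23.7 CPM and cluster 11, with a median of 4214 UMIs per cell, 57.4 CPM. In the sham libraries all of these had at most 11.04 CPM, with the exception of cluster 15 of the sham ActD library, which held 36 cells and had 54.0 CPM. At 3 dpi clusters 0, 1, 10 and 13 had 55.4, 147, 85.1 and 55.7 CPM, so that clusters 0 and 13 were near the level of T cells in that library and cluster 1 was not. Cluster 1 of 3 dpi held 469 cells with a median of 7254 UMIs, against 13548 or more in clusters 0, 10 and 13. The list of injury macrophages was its second best.

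**Figure D5:**
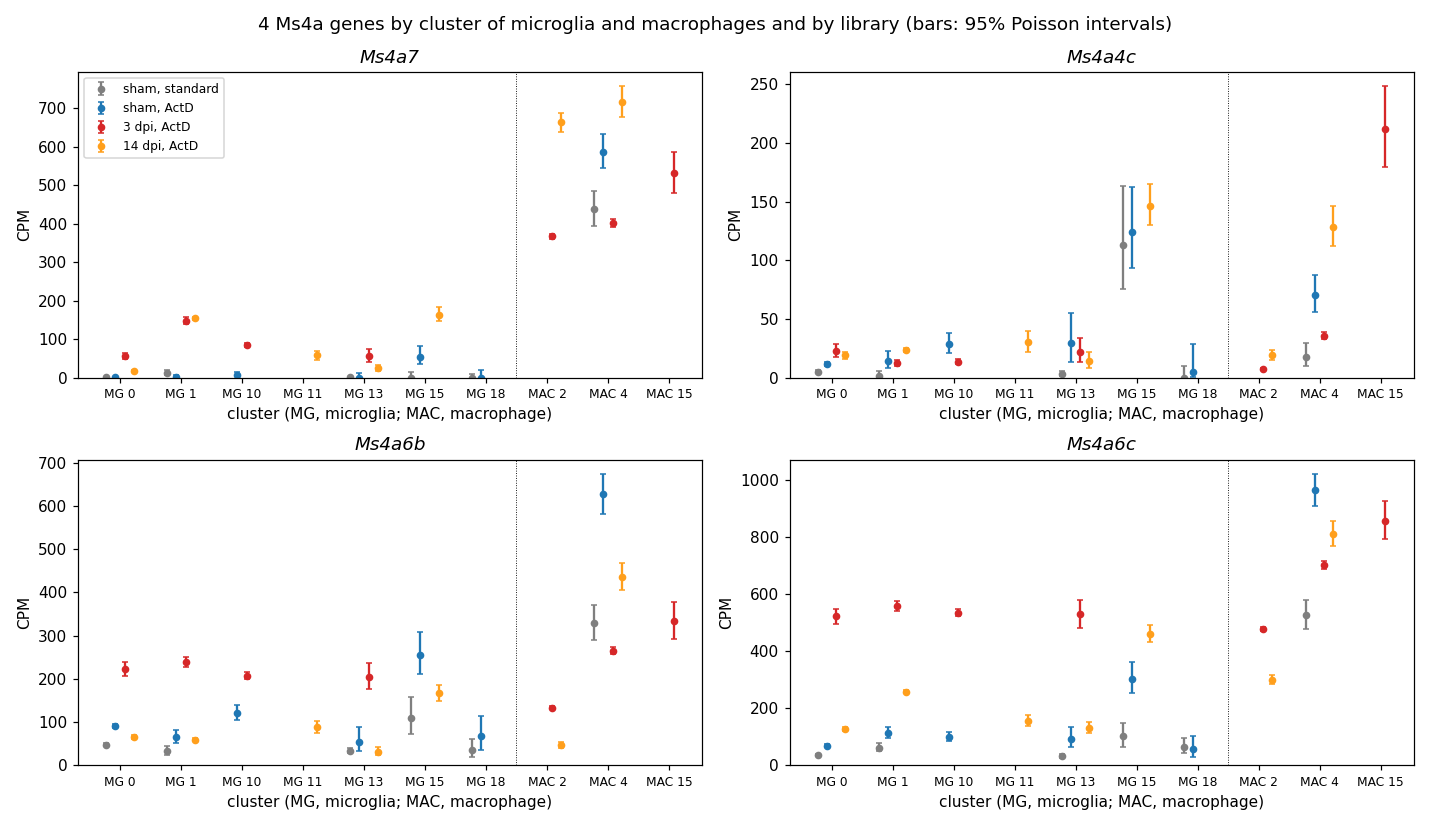
Levels in CPM of Ms4a7, Ms4a4c, Ms4a6b and Ms4a6c in each cluster of microglia (MG) and macrophages (MAC), 1 colour per library (grey, sham standard; blue, sham ActD; red, 3 dpi; orange, 14 dpi), with 95% Poisson intervals as bars. Microglial Ms4a7 at 14 dpi is 154 CPM in cluster 1 and 16.8 CPM in cluster 0, and Ms4a4c stands out in cluster 15.

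The interferon cluster 15 was set apart by Ms4a4c. Its microglia were at 113, 125 and 147 CPM of Ms4a4c in the sham standard, sham ActD and 14 dpi libraries, where the other microglial clusters of any library were at no more than 29.9 CPM. The 48 cells of cluster 15 at 3 dpi were named macrophages and had 212 CPM of Ms4a4c, beside 7.24 and 35.7 CPM in macrophage clusters 2 and 4. Ifit3 was at 870, 1198 and 1087 CPM in the microglia of cluster 15 in those 3 libraries. Ms4a6b there was at 109, 256 and 167 CPM and Ms4a6c at 101, 303 and 460 CPM, in each library above the other microglial clusters. The clusters were formed without Ms4a genes, yet on the same cells, so these values describe the clusters and no test was made.

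In macrophages, 4 members were past 2-fold lower at 3 dpi than in the sham ActD library, Ms4a4a, Ms4a4b, Ms4a4c and Ms4a6b, where 31.6% of all genes were lower and none of the 9 was higher, where 9.93% of genes were. The median log2 ratio was -0.83 over the members and -0.44 over all genes. The log2 ratio was -1.87 (-1.98 to -1.76) for Ms4a6b and -1.99 (-2.32 to -1.65) for Ms4a4c. That of Ms4a4b, -2.02, turned to 0.69 where cells were named one by one. Ms4a6d went the other way, with a log2 ratio of 0.64 (0.50 to 0.79), and Ms4a6c and Ms4a7 were within 2-fold, at -0.83 (-0.91 to -0.74) and -0.63 (-0.74 to -0.52). The macrophages compared were not the same clusters. In the sham libraries they were all of cluster 4, rich in Mrc1, a receptor of border macrophages, while at 3 dpi 2027 of the 3198 were of cluster 2, led by Gpnmb and Fabp5.

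Within cluster 4 alone, Ms4a6b was at 330, 627, 265 and 437 CPM, Ms4a6c at 524, 962, 700 and 810 CPM and Ms4a7 at 438, 587, 401 and 716 CPM in the sham standard, sham ActD, 3 dpi and 14 dpi libraries. Ms4a6d was at 176, 343, 641 and 340 CPM there, again highest at 3 dpi. Cluster 4 itself differed between libraries. At 3 dpi it held 1123 cells, and 6 markers of the border macrophage list reached the share of cells needed for a name. In the sham ActD library it held 107 cells, and 9 markers did. The finer clusters 12, led by Mrc1, and 5, led by Arg1, held 378 and 1017 macrophages at 3 dpi. Their part in the 3 dpi values of cluster 4 was not tested. Cluster 2 had 134 and 47.5 CPM of Ms4a6b, 477 and 299 CPM of Ms4a6c, and 368 and 664 CPM of Ms4a7 at 3 and 14 dpi. At both times Ms4a6b was lower in cluster 2 than in cluster 4, while Ms4a7 was close in both.

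At 14 dpi, 4 of the 7 members with enough UMIs were past 2-fold lower in macrophages than in the sham ActD library, Ms4a4a, Ms4a4b, Ms4a6b and Ms4a6c, against 14.4% of genes, and none was higher, against 7.55%. Without cluster 2 the number was 2, and the log2 ratios of Ms4a6b and Ms4a6c were then -0.52 and -0.25 in place of -1.96 and -1.10. With libraries merged without integration that of Ms4a6b was -0.16. Ms4a7 differed by a log2 ratio of 0.21 (0.09 to 0.33) and Ms4a6d by -0.48 (-0.64 to -0.31). From 3 to 14 dpi, Ms4a3 and Ms4a4c were past 2-fold higher, against 17.7% of genes, and Ms4a6d lower, against 9.69%. Ms4a3 rests there on 21 UMIs at 3 dpi and 7 at 14 dpi, and its log2 ratio turned from 1.62 to -0.25 where cells were named one by one.

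In monocytes most members were lower at 3 dpi than in the other libraries. Against the sham ActD library, Ms4a4b, Ms4a4c, Ms4a6b and Ms4a6c were past 2-fold lower, against 23% of genes, and Ms4a7 was higher, against 9.77%, out of 7 members with enough UMIs. The log2 ratio was -2.11 (-2.29 to -1.94) for Ms4a4c, -1.35 (-1.52 to -1.17) for Ms4a6b and -1.02 (-1.13 to -0.90) for Ms4a6c. With cells named one by one all 3 were within 2-fold, at -0.84, -0.13 and -0.48, and with TMM scaling Ms4a6b and Ms4a6c were, at -0.96 and -0.62. Without doublet removal Ms4a6c was at -0.40. Ms4a7, at 42.5 CPM (21 UMIs) in the sham ActD library and 116 CPM at 3 dpi, had a log2 ratio of 1.45 (0.83 to 2.16), beside 43.8 CPM in T cells of 3 dpi, and of 0.66 at resolution 1.2. Ms4a6d was at a log2 ratio of 0.74 (0.49 to 0.99). Arg1 stood at 3307 CPM in the monocytes of 3 dpi and at 0 UMIs in both sham libraries, so that the cells called monocytes at 3 dpi also carried genes of injury macrophages. Its part in the result was not tested.

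At 14 dpi none of the 7 members was past 2-fold in either direction from the sham ActD library, where 5.87% of genes were higher and 7.56% lower. The 4 that were low at 3 dpi were past 2-fold higher at 14 than at 3 dpi, against 16.4% of genes. The log2 ratios were 1.91 for Ms4a4b, 2.40 for Ms4a4c, 1.53 for Ms4a6b and 1.24 for Ms4a6c. Ms4a7 was lower, with a log2 ratio of -2.27 (-2.55 to -2.00), against 9.29% of genes lower. With cells named one by one Ms4a6b and Ms4a6c were within 2-fold (0.45 and 0.69), and with libraries merged without integration Ms4a7 was (-0.34). The sham ActD monocytes were only 28 cells, 20 of them in the Ace-rich cluster 18, so the comparisons with sham rest on few cells of mostly 1 kind.

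Microglia, macrophages and monocytes of 3 dpi thus lay closer together in Ms4a6b and Ms4a6c than those of the sham ActD library. The microglia, macrophages and monocytes compared were made up of different clusters, as given above, and the sham ActD monocytes were 28 cells. With cells named one by one, the monocytes of 3 dpi were within 2-fold of sham for both genes. Ms4a6c spanned 80.8, 962 and 1485 CPM in microglia, macrophages and monocytes of the sham ActD library, and 539, 542 and 734 CPM at 3 dpi. Ms4a6b spanned 94.9, 627 and 676 CPM in the former and 219, 172 and 265 CPM in the latter. At 14 dpi Ms4a6c was again at 234, 449 and 1734 CPM. For Ms4a7 the order macrophages over microglia held in all 4 libraries, 5.56-fold (5.34 to 5.78) at 14 dpi.

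Among lymphocytes, B cells had 2 members past 2-fold lower at 3 dpi than in the sham ActD library, Ms4a1 and Ms4a4c (16.4% of genes), and 3 higher, Ms4a6b, Ms4a6c and Ms4a6d (7.27% of genes), of 6 with enough UMIs. The 3 higher ones were at 68.3, 96.8 and 96.8 CPM at 3 dpi, close to the 65.1, 83.7 and 121 CPM of NK cells. The log2 ratio of Ms4a1 was -1.18 (-1.41 to -0.95), and at 14 dpi its ratio to the sham ActD library was -0.08 (-0.22 to 0.07). At 14 dpi Ms4a6c was past 2-fold higher (5.07% of genes) at 44.7 CPM against 9.47, and none was lower (3.84%). The sham ActD value of Ms4a6c rests on few UMIs, beside 41 at 14 dpi. From 3 to 14 dpi Ms4a1 was past 2-fold higher (17.4% of genes) and Ms4a6b, Ms4a6c, Ms4a6d and Ms4a7 were lower (6.59%).

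T and NK cells could be compared from 3 to 14 dpi only. In T cells, Ms4a4c was past 2-fold higher, at 58.4 against 27.7 CPM (7.4% of genes higher), and Ms4a6c, Ms4a6d and Ms4a7 were lower (6.44%), at 28.4 against 85.7 CPM for Ms4a6c. Ms4a4b had a log2 ratio of 0.43 (0.36 to 0.50) in T cells and 0.65 (0.34 to 0.97) in NK cells, and Ms4a6b one of 0.12 (0.01 to 0.22) in T cells. In NK cells, Ms4a6c and Ms4a6d were past 2-fold lower (7.33% of genes), and no member was higher (15.2%). In progenitors Ms4a3 and Ms4a4b were past 2-fold higher at 14 than at 3 dpi (13.1% of genes), with log2 ratios of 2.13 (1.82 to 2.46) and 1.04 (-0.03 to 2.38), and Ms4a6d and Ms4a7 were lower (13.3%), from 333 and 119.99 CPM at 3 dpi, beside 113 and 43.8 CPM in T cells of that library. In conventional DCs Ms4a4a, Ms4a4c and Ms4a6b were past 2-fold higher at 14 than at 3 dpi (8.24% of genes) and none was lower (5.39%). In plasmacytoid DCs Ms4a4c was past 2-fold higher (13.9% of genes) with an interval that held 1, and none was lower (5%).

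In neutrophils 7 of 8 members were past 2-fold higher at 3 dpi than in the sham ActD library, where 52.8% of all genes were, and Ms4a3 was lower (7.06%), so that the count of the members has to be read against a class in which most genes were higher. TMM scaling would add -0.95 to each of these log2 ratios. At 3 dpi Ms4a6b, Ms4a6c and Ms4a7 were at 57.5, 112 and 56.8 CPM in neutrophils, beside 68.3, 96.8 and 42.7 CPM in B cells, and Ms4a6d was at 209.6 beside 96.8 CPM. From 3 to 14 dpi, 6 of 8 members were lower (55.6% of genes) and Ms4a3 was higher (5.87%). At 14 dpi against the sham ActD library Ms4a7 alone was past 2-fold higher, at 4.54 against 1.77 CPM (7.07% of genes), and none was lower (5.62%). The sham ActD value of Ms4a7 rests on few UMIs, beside 35 at 14 dpi. In the standard against the ActD sham library Ms4a6c was higher, at 36.2 against 10.6 CPM (16% of genes), and none was lower (8.25%). In migratory DCs the 3 members with enough UMIs, Ms4a6b, Ms4a6c and Ms4a6d, were lower at 14 than at 3 dpi (10.9% of genes), each from 2 or 3 UMIs at 14 dpi, and none was higher (9.38%). Their 3 dpi levels, 50.2, 67.8 and 62.8 CPM, were below those of B cells of that library. In endothelial cells, also present after the sort, the 3 Ms4a6 genes and Ms4a7 were lower at 14 dpi than in the sham ActD library (11.1%), from 6 to 14 UMIs at 14 dpi, and none was higher (6.32%).

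The 2 sham libraries, which differ in dissociation and also in the software version of their files, differed in most members in microglia only. There, 5 of 8 members were past 2-fold lower in the standard than in the ActD library, Ms4a4b, Ms4a4c, Ms4a6b, Ms4a6c and Ms4a7 (24.8% of genes lower), and Ms4a3 was higher (6.28%). TMM scaling would add 0.561 to each log2 ratio and leave 1 member lower and 1 higher, and the stricter cell filter left 2 lower and 1 higher. The ratio of Ms4a4b turned positive under 4 of the alternatives and that of Ms4a7 with the stricter cell filter. The log2 ratios of Ms4a6b and Ms4a6c were -1.07 and -1.08, and that of Ms4a6d -0.94, beside a median of -0.57 over all genes. In macrophages Ms4a4c was past 2-fold lower (17.2% of genes), at 17.5 against 70.1 CPM, and Ms4a1 higher (6.17%), at least 16.8-fold, with 35 UMIs against 0. In monocytes Ms4a6d and Ms4a7 were lower (16.6%) and none was higher (6.68%). In B cells Ms4a1 and Ms4a4c were lower (8.51%) and none was higher (9.55%). The log2 ratio of Ms4a1 was -1.33 (-1.48 to -1.19) there, with the larger part of cluster 16 in the standard library given above.

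Genes of the same larger family or known as partners were looked at by a fixed list. Tmem176a and Tmem176b, relatives of the MS4A proteins, were at 614 and 1234 CPM in the macrophages of the sham ActD library, 17.3 and 26.7 CPM at 3 dpi and 362 and 527 CPM at 14 dpi, a larger swing than that of any member there (log2 -5.15 and -5.53 at 3 dpi). In microglia Tmem176a and Tmem176b had log2 ratios of -1.88 and -1.91 at 3 dpi. Trem2, whose soluble form has been tied to human MS4A genes, was at 1947, 2339, 1222 and 3003 CPM in microglia and at 503, 494, 1014 and 2355 CPM in macrophages of the 4 libraries. Tyrobp, the adaptor of Trem2, had log2 ratios of 0.01 at 3 dpi and 0.88 at 14 dpi in microglia, and Fcer1g, another adaptor, 0.29 and 0.45. Tnfrsf18, a receptor of activated T cells also known as GITR, was at 186 CPM in T cells at 3 dpi and 162 CPM at 14 dpi (log2 -0.20, -0.39 to -0.01). Cd40, a co-stimulatory receptor, had a log2 ratio of 1.70 (1.04 to 2.41) in microglia, -2.06 (-2.63 to -1.44) in macrophages and -2.22 (-2.99 to -1.40) in monocytes at 3 dpi.

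As a description of likeness, Pearson's r of log2(CPM + 1) was taken over 41 units of class and library, which share libraries and background RNA. Fcmr, Fcer2a, Ctsg, Mpo, Prtn3, Cd36, Ccr2 and F13a1 are on the marker lists that named the classes. Their place below is therefore partly set by the naming. The gene most like Ms4a1 was Fcmr (r = 0.969), most like Ms4a3 Ctsg (0.847), Ms4a4b Skap1 (0.872), Ms4a4c Jarid2 (0.741), Ms4a4a Cd36 (0.803), Ms4a6b Tns4 (0.725), Ms4a6c Mcub (0.891), Ms4a6d Cd68 (0.900) and Ms4a7 Dab2 (0.876). Fcer2a and Iglc1 followed for Ms4a1, Mpo and Prtn3 for Ms4a3, Fasl and Fam189b for Ms4a4b, Ifi205 and Pitpna for Ms4a4c, Serpinb8 and Clec4a1 for Ms4a4a, Mcub and Ccr2 for Ms4a6b, F13a1 and Ifi207 for Ms4a6c, Cndp2 and Fcgr1 for Ms4a6d, and Rab7b and Lipa for Ms4a7. Within the family the highest r was that of Ms4a6d and Ms4a7 (0.783). The highest r of Ms4a4b with another member was that with Ms4a6b (0.536), and that of Ms4a4c was also with Ms4a6b (0.651).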

How the data were processed

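Single-cell RNA sequencing was performed on CD45+ cells of 4 libraries, 1 per condition. The counts of UMIs that the authors deposited are whole numbers for each barcode and gene, with no normalization. The submitters' processing notes name Cell Ranger and mm10. The headers carry software version 3.0.1 for the sham standard and 3 dpi libraries and 3.1.0 for the sham ActD and 14 dpi libraries. The dissociation and the software version of the sham libraries therefore cannot be told apart. Nor can the software version be told apart from injury between 3 dpi and sham ActD, or from time between 3 and 14 dpi. The libraries held 6827, 2439, 10763 and 11631 barcodes.

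Barcodes below 600 genes or above 10% mitochondrial UMIs were left out, as were cells that held Itgam together with a lymphoid marker. Some genes are not reported here. Doublets were removed by Scrublet score (scanpy 1.11.5, Python 3.11.15) at 0.8% per 1000 cells. Seurat 5.3.0 (R 4.3.3) was used to integrate the libraries (2000 features without Ms4a genes, k.filter 200, 50 dimensions) and clustered at resolution 0.6, or 1.2 for the finer clusters. A list could name a cluster in a library where at least 3 of its markers were each found in 25% of the cells. Among such lists, the one whose markers stood highest over the mean of that library's clusters gave the name. The name was withheld where genes of another class led, where lymphoid and myeloid lists were both high, or where UMIs were low. The same cluster could therefore be named differently between libraries, as clusters 10 and 15 were. Thresholds were set after the clusters had been seen, and clusters without a name held 0.176 to 11.9% of cells.

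UMI counts were summed per class and library and given as CPM, with exact Poisson intervals, exact conditional intervals for ratios and Clopper-Pearson intervals for shares, after each cell was thinned to 1000 UMIs. A member was called past 2-fold where both libraries together held 20 or more of its UMIs, with a count of 0 set to 3. TMM factors came from edgeR 4.0.16. The calculations were tested on simulated data. The named genes were the 9 members, the other Ms4a genes, Tmem176a, Tmem176b, Trem2, Tyrobp, Tnfrsf18, Cd40, Fcer1g and the 3 genes most like each member. The members and lists were chosen with earlier results of these data known.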

Additional observations from a re-analysis of the deposited data

Results flagged for a closer look

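Several members differed in opposite directions in different classes under the same comparison. None of these differences was tested, and the comparisons share the sham ActD or the 3 dpi library, so that they are not independent. At 3 dpi against the sham ActD library, Ms4a4a had a log2 ratio of 4.59 in microglia and -1.83 in macrophages. The microglial value rests on 3 UMIs in the sham ActD library, and the 3 dpi level was not above that of B cells beyond counting error. Ms4a6b had 1.204 in microglia, -1.87 in macrophages and -1.35 in monocytes, and Ms4a6c had 2.74 in microglia and -1.02 in monocytes. With cells named one by one the monocyte values were -0.13 and -0.48. At 14 dpi against the same library, Ms4a6c had 1.54 in microglia and -1.10 in macrophages, the latter -0.25 without cluster 2. From 3 to 14 dpi, Ms4a6b had 1.53 in monocytes and -1.75 in microglia, and Ms4a6c had 1.24 in monocytes and -1.20 in microglia, with 0.45 and 0.69 for the monocytes where cells were named one by one.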

How the results depend on the processing

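The numbers of members past 2-fold in microglia after injury and in macrophages at 3 dpi stayed within 1.5 times of the values above under every alternative that was run for them. In microglia of the sham libraries the number went from 6 to 2 with TMM scaling and 3 with the stricter cell filter. In macrophages at 14 dpi against sham it went from 4 to 2 without doublet removal, 2 with Itgam cells that carry a lymphoid marker kept, 1 with libraries merged without integration and 2 without cluster 2, an alternative chosen after seeing the data, as was leaving out microglial cluster 11. From 3 to 14 dpi it went from 3 to 5 with those Itgam cells kept. In monocytes at 3 dpi it went from 5 to 3 without doublet removal and 3 with cells named one by one, at 14 dpi from 0 to 1 without doublet removal, merged, at resolution 1.2, with cells named one by one and with no minimum of UMIs, and from 3 to 14 dpi from 5 to 2 with cells named one by one. The share of cells with a UMI went from 8.11% to 28.5% at full depth and 13.1% at 2000 UMIs for Ms4a7 in microglia at 14 dpi, from 36.3% to 87.8% and 60.9% for Ms4a6c in microglia at 3 dpi, and from 62.1% to 84.3% and 76.1% for Ms4a4b in T cells at 14 dpi. The class in which a member was highest moved too. In the sham ActD library, stricter filters and kept Itgam cells left no named monocytes. Ms4a6b and Ms4a6c were then highest in macrophages and Ms4a4c in B cells. At 3 dpi Ms4a3 was highest in neutrophils or conventional DCs under several alternatives, most of which named no progenitors there. With cells named one by one, Ms4a6b was highest in T cells and Ms4a6d in macrophages at 14 dpi, among other changes. Of 690 single ratios under alternatives, 378 kept their value within its interval, 297 moved and 15 reversed. Ms4a1 in microglia turned from -1.68 at 3 dpi to 1.86 with looser filters and 1.21 at resolution 1.2, and from -1.58 at 14 dpi to 2.14 with looser filters, 1.89 merged, 2.44 at resolution 1.2 and 0.0653 one by one. Between the sham libraries Ms4a4b in microglia turned from -3.10 to 1.24, 1.91, 1.10 and 0.80 under the same 4, and Ms4a7 from -1.44 to 0.57 with stricter filters. In macrophages Ms4a4b turned from -2.02 to 0.69 one by one at 3 dpi and from -1.76 to 0.0258 with Itgam cells kept and 0.46 one by one at 14 dpi, and Ms4a3 from 1.62 to -0.25 one by one from 3 to 14 dpi. The causes were not tested. Merging could not be fitted for microglia at 3 dpi. There a cluster of 1027 cells had microglia as its best list but was given no name. Genes of another class, such as Spp1 and Hmox1, led it. Stricter filters and kept Itgam cells could not be fitted for monocytes against sham, since too few cells were named. No paired analysis was possible because each condition had 1 library, so that the groups shared fewer than 2 replicate numbers.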

Other observations

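Of the 10 other genes whose symbol starts with Ms4a, 3 had over 300 UMIs. Ms4a8a had 2177 UMIs over the classes and was highest in monocytes at 3 dpi, at 89.0 CPM. Ms4a14 had 1015 UMIs and was highest in macrophages of the sham ActD library, at 29.4 CPM. Ms4a2, the beta chain of the IgE receptor of mast cells and basophils, had 330 UMIs, 298 of them in the erythroid class of 14 dpi, at 178 CPM. The cluster of that class was led by Prss34 and Mcpt8, proteases of basophils, beside hemoglobin genes, and the list of mast cells and basophils was its second best. Ms4a4d had 27 UMIs, and the remaining genes had at most 4.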
